A study of Homo sapiens with 10 samples.

Results

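The telomeric end of the long arm of chromosome 12 (12q24.33) carries a run of zinc finger genes, and RNA levels of 8 listed genes from this run were examined in WT and ZNF274 KO cells. The members were taken by name and position on hg19: the zinc finger genes ZNF605, ZNF26, ZNF84, ZNF140, ZNF10 and ZNF268, and the neighbours CHFR and ANHX, which encode no zinc finger repressor. Of the 8 members, 7 had a row in both count tables, which list 22750 genes for HEK293T and 20965 for NPC with 19665 in common. ANHX, a homeobox gene, has no row in either table and was not analysed here. ZNF891, a zinc finger gene lying between ZNF140 and ZNF10, is no listed member and is described with the neighbouring genes.

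Krüppel-associated box (KRAB) zinc finger proteins (KZFPs) bind DNA through arrays of C2H2 fingers, and their KRAB domain recruits the corepressor KAP1 (TRIM28), which brings the methyltransferase SETDB1 and the heterochromatin mark H3K9me3 to the bound locus. Many KZFP genes stand in clusters and are themselves covered by H3K9me3. ZNF274 is a KZFP with a SCAN domain that is known for binding zinc finger gene bodies, so the question here is how the 12q24.33 genes were expressed when ZNF274 was missing.

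The 10 stranded mRNA libraries form 4 groups: 3 WT and 3 ZNF274KO libraries of HEK293T, a line derived from human embryonic kidney, and 2 WT and 2 ZNF274KO libraries of NPC, neural progenitor cultures obtained from the H1 embryonic stem cell line through embryoid bodies. In both lines the ZNF274 locus was removed with CRISPR-Cas9 and guides on either side of it, and the cells were taken forward as clones grown from single cells or colonies. The labels describe independent clones without saying which clone each library holds. The p-values measure the spread between libraries, which includes differences between clones only where libraries of a group come from different clones. Libraries are called by their labelled numbers, S15 to S17 (WT) and S18 to S20 (KO) for HEK293T, and S3 and S5 (WT) and S1 and S2 (KO) for NPC.

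Libraries held 18621266 to 32285876 counts on genes. The targeted gene ZNF274 had 423 to 492 counts in the WT HEK293T libraries, 491 and 496 in the WT NPC libraries and 0 in all 5 KO libraries, so that its level was at least 422.2-fold lower in KO HEK293T and at least 339.8-fold lower in KO NPC than in WT, with 3 counts over the group as the limit. Within KO HEK293T, S18 differed from S19 and S20 by 81.9 and 72.0 chi-square units per degree of freedom over genes, against 26.3 between S19 and S20. In NPC the markers of cell types moved with the genotype, where 8.45% of all genes tested were called higher and 8.36% lower. Of 5 neuron markers 3 were called lower in KO, and their summed level was 1044 and 1137 CPM (counts scaled to the size of the library) in WT against 201 and 156 in KO. Of 8 mesenchymal markers 4 were called higher (summed 2065 and 1206 against 5760 and 5048 CPM), and of 7 neural progenitor markers 5 were called lower, with HES5 at 0 counts in both KO libraries, although the sum, 2816 and 3873 against 3249 and 3210 CPM, overlapped. The part of these shifts in the NPC values below was not tested, and in bulk RNA a change in the share of a cell type cannot be told apart from a change in RNA per cell. In HEK293T 3 of the 5 neuron, 5 of the 8 mesenchymal and 5 of the 7 neural progenitor markers were tested, and 0 were called. Of all genes tested there 0.478% were called higher and 0.0105% lower.

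The members are close neighbours. In the GENCODE annotation on hg19, CHFR (chr12:133398773-133532890) and ZNF605 (chr12:133494892-133532892) are on the minus strand and share 37999 bases, with the outermost annotated CHFR start 2 bases from the ZNF605 start. RefSeq starts CHFR further inside this span, with promoter windows that lie within chr12:133464142-133464454. ZNF26 (chr12:133562951-133609538), ZNF84 (chr12:133613878-133639890), ZNF140 (chr12:133657060-133684112), ZNF10 (chr12:133707161-133736051) and ZNF268 (chr12:133757995-133791418) follow on the plus strand. ZNF891 (chr12:133681365-133706860) lies on the minus strand, its start 301 bases from that of ZNF10, and its span overlaps that of ZNF140 by 2748 bases. The proteins of the selected (MANE) transcripts have 10 C2H2 fingers in ZNF140 and ZNF10, 14 in ZNF26, 17 in ZNF605, 19 in ZNF84 and 25 in ZNF268, by the pattern C, 2 to 4 residues, C, 12 residues, H, 3 to 5 residues, H. The fingers of CHFR by the same pattern were 0. Since CHFR and ZNF605 overlap on one strand, reads in their shared exons, if any, could not be assigned by strand.

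Promoter sequence was read from RefSeq. RefSeq promoter windows (GRCh38.p14, 250 bases before to 50 after each start) were found for all 8 members and ZNF891, 12 windows in all, and each matched hg19 at 1 place on chromosome 12. The windows of CHFR and ZNF140 do not cover the outermost GENCODE starts of these genes. That of CHFR lies inside the ZNF605 window. The letters TATAAA, searched on both strands, were in 0 of the 12 windows, against 11.5% of the 35116 windows of the table and 3.99% of 602 windows of zinc finger genes elsewhere. The GC box GGGCGG was in 9 of 12, against 45.0% of all windows and 60.5% of windows of zinc finger genes elsewhere. CCAAT was in 8 of 12, against 34.6% and 44.2%. These counts take CHFR, ZNF84 and ANHX with 2 overlapping windows each, and CHFR and ANHX are no zinc finger genes. Of the zinc finger members, ZNF84, ZNF140 and ZNF10 held the GC box, while ZNF605, ZNF26 and ZNF268 did not. CCAAT was in those of ZNF605, ZNF140, ZNF10 and ZNF268, but not in those of ZNF26 and ZNF84. CpG observed over expected was 0.85 to 1.33, against a median of 0.58 over all windows. A short run of letters, TGTAGTT, was noticed on reading these windows and then searched on both strands. It was in 4 of the 12 windows (33.3%), those of ZNF605, ZNF26, ZNF140 and ZNF268. Of all windows 3.19% held it, and of windows of zinc finger genes elsewhere 10.5%. In each of the 4 windows it follows the letters GGGA after 2 further bases, a longer match found in 0.851% of all windows and 4.98% of windows of zinc finger genes elsewhere. ZNF605 and ZNF140 have it at 2 places, and ZNF605 has 1 copy that begins 1 base before the annotated start. Neither ZNF84 nor ZNF10 holds the letters in its window. The 4 sequences are shown because they are the promoters that share this element, from 250 bases before to 20 after the start, with TGTAGTT in capitals and coordinates on hg19.
ZNF605, chr12:133532873-133533142, minus strand: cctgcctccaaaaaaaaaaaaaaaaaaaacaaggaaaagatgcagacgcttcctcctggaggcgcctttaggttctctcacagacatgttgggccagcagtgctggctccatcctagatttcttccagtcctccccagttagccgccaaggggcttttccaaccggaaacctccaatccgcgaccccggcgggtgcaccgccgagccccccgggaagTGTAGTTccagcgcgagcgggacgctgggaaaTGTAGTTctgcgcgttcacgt
ZNF26, chr12:133562703-133562972, plus strand: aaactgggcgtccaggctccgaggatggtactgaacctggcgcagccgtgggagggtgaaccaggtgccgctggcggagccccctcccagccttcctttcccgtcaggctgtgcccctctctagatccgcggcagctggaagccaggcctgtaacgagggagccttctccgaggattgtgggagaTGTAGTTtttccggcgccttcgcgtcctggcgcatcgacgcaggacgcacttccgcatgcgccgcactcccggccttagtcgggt
ZNF140, chr12:133657259-133657528, plus strand: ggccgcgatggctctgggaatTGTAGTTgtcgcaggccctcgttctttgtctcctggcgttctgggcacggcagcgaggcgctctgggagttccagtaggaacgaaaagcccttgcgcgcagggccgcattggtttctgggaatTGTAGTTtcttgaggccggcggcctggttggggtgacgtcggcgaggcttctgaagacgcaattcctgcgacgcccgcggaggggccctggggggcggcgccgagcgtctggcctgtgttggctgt
ZNF268, chr12:133757831-133758100, plus strand: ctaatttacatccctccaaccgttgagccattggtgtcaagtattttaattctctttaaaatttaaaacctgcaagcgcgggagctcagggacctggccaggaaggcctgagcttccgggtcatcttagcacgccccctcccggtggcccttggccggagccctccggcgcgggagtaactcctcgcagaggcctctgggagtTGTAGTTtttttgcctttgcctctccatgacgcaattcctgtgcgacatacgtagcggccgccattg

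In WT HEK293T the cluster genes differed in level, and no neighbours in the order overlapped. Compared per kb of exons, the mean level was 3.45 ± 0.436 CPM per kb (SD, n = 3) for ZNF140, 2.26 ± 0.290 for ZNF268, 1.64 ± 0.147 for ZNF84, 1.30 ± 0.200 for CHFR, 0.969 ± 0.104 for ZNF10, 0.585 ± 0.112 for ZNF26 and 0.308 ± 0.037 for ZNF605, in 3 libraries each. ZNF891 was lower still, at 0.153 ± 0.034 CPM per kb. From the highest to the lowest zinc finger member the mean level per kb spanned 11.21-fold. The length is that of all annotated exons joined, 4450 bases for ZNF140 and 20862 for ZNF26, and a gene read from short isoforms alone would have a higher level per kb than this.

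Deletion of ZNF274 in HEK293T cells was accompanied by higher RNA of all 6 zinc finger members. Each passed the thresholds for a call, a Benjamini-Hochberg adjusted p under 0.05 together with a fold change (FC) over 2, with log2 FC from 1.14 to 2.86, while CHFR, which overlaps ZNF605, was not called. Over all genes tested 0.478% were called higher (91 of 19018), and the median log2 FC was 0.01, against 1.59 over the 7 measured members. For all 7 every KO library was above every WT library, a pattern found in 7.16% of all genes. The summed level of the 6 zinc finger members was 77.5, 94.6 and 79.0 CPM in WT and 265, 261 and 215 CPM in KO.

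ZNF605 showed the greatest rise among the members. Its counts were 113, 96 and 87 in WT HEK293T and 608, 798 and 578 in KO HEK293T. Every KO library thus lay far above the WT libraries, although S18 had the fewest counts in total of the HEK293T libraries. The mean level was 3.33 ± 0.405 CPM in WT and 24.1 ± 2.45 CPM in KO (SD, n = 3 each), a log2 FC of 2.86 (SE 0.201, adjusted p = 5.43e-05, edgeR quasi-likelihood test), which is 7.24-fold with a 95% interval of 5.32 to 9.85. By p it ranked 8 among 19018 genes, and by log2 FC 252.

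ZNF84 and ZNF10 rose by the same amount on the log2 scale, 1.82. ZNF10 (KOX1) is the gene from which the KRAB domain of widely used synthetic repressors was taken. Its counts were 168, 169 and 140 in WT and 464, 605 and 487 in KO, without overlap, and the mean went from 5.37 ± 0.574 to 18.9 ± 1.07 CPM (SE of the log2 FC 0.191, adjusted p = 0.000894). ZNF84 had 428, 493 and 461 counts in WT and 1593, 1745 and 1147 in KO. The KO libraries of ZNF84 spread more, from 42.6 CPM in S20 to 69.1 CPM in S18, yet the lowest was above the highest WT library, S16 (SE 0.196, adjusted p = 0.000985).

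ZNF140, which encodes a KRAB repressor with 10 fingers, had the highest level per kb in both groups. It counted 449, 507 and 405 in WT against 1199, 1441 and 1135 in KO, and rose from 15.3 ± 1.94 to 46.0 ± 5.21 CPM (log2 FC 1.59, SE 0.168, adjusted p = 0.0009). ZNF26 counted 337, 432 and 313 in WT and 767, 1250 and 740 in KO. Its lowest KO library, S20 at 27.5 CPM, was above its highest WT library, S16 at 14.9 CPM (log2 FC 1.44, SE 0.198, adjusted p = 0.00631). ZNF268, the most telomeric zinc finger member and the one with the most fingers, had the smallest rise of the 6. Its counts were 845, 1050 and 936 in WT and 1487, 2706 and 1702 in KO, a mean of 31.9 ± 4.09 against 70.1 ± 10.8 CPM (log2 FC 1.14, SE 0.165, adjusted p = 0.00867). The calls of ZNF26 and ZNF268 were lost when WT library S15 or S17 was left out, with adjusted p of 0.0581 and 0.0737 without S15 and 0.0620 and 0.0835 without S17. Without S18 all 6 were called.

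CHFR encodes an E3 ubiquitin ligase of a mitotic checkpoint. Its counts were 765, 661 and 550 in WT and 889, 1253 and 960 in KO, and the lowest KO level, 35.7 CPM, was above the highest WT level, 25.4 CPM. The log2 FC of 0.76 (SE 0.165) had an adjusted p of 0.114 with edgeR and was not called. With DESeq2 the log2 FC was also 0.76 and the adjusted p was 0.00354, so that the FC threshold alone was missed. The 95% interval from edgeR, 1.31 to 2.18-fold, lay below that of ZNF605 (5.32 to 9.85-fold).

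**Figure D1:**
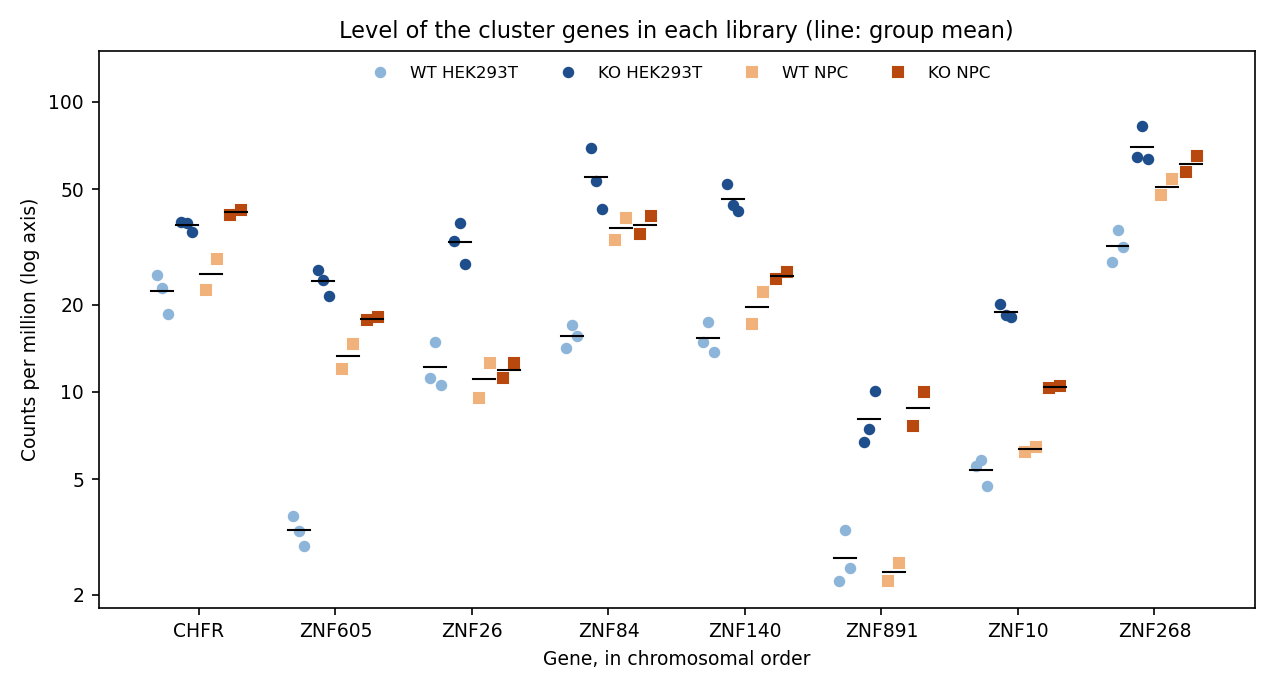
Level of each cluster gene and of ZNF891 in every library, as CPM on a log axis, scaled together over all 10 libraries. Points are libraries (3 WT and 3 KO HEK293T, 2 WT and 2 KO NPC) and lines are group means. In HEK293T the KO points lie above the WT points for every gene drawn, while in NPC the WT and KO points of ZNF26 and ZNF84 overlap.

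After deletion the order in HEK293T changed. ZNF140 remained the highest, at 10.3 ± 1.17 CPM per kb, followed by ZNF84 (5.78 ± 1.40) and ZNF268 (4.97 ± 0.768), whose libraries overlapped, then ZNF10 (3.41 ± 0.194). ZNF605, the lowest of the members in WT, stood at 2.22 ± 0.226 CPM per kb and overlapped CHFR at 2.19 ± 0.092, while ZNF26 came last at 1.58 ± 0.255. The span from highest to lowest zinc finger member was 6.55-fold in KO against 11.21-fold in WT.

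In NPCs the same deletion was not followed by a call for any member. None of 7 passed both thresholds in either direction with edgeR, against 8.45% of all genes called higher (1738 of 20577), and the DESeq2 and voom tests also called 0. At an unadjusted p below 0.05, 2 members were higher, CHFR and ZNF10, against 20.6% of all genes. For 5 of 7 both KO libraries were above both WT libraries, a pattern found in 33.3% of all genes with these group sizes. The median log2 FC was 0.34 over the 7 members and -0.02 over all genes. The neuron, neural progenitor and mesenchymal markers given above moved between these same libraries.

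CHFR had the smallest adjusted p of the members in NPCs. Its counts were 473 and 560 in WT and 821 and 925 in KO, 25.6 ± 4.39 against 41.6 ± 1.12 CPM (SD, n = 2 each), without overlap. The log2 FC was 0.69 (SE 0.163, adjusted p = 0.0196), and the 1.61-fold change kept it below the FC threshold. ZNF10 had 131 and 126 counts in WT and 208 and 229 in KO. Its groups did not overlap either (6.34 ± 0.162 and 10.4 ± 0.111 CPM), with a log2 FC of 0.70 (SE 0.220, adjusted p = 0.0520).

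The other zinc finger members had smaller differences in NPCs. ZNF605 had 252 and 285 counts in WT and 356 and 394 in KO, a log2 FC of 0.41 (SE 0.189, adjusted p = 0.148). The values were 0.34 for ZNF140 (361 and 432 against 491 and 565 counts, adjusted p = 0.202) and 0.25 for ZNF268 (1003 and 1055 against 1151 and 1423 counts, adjusted p = 0.197). These 3 genes had KO libraries above WT libraries once scaled. With each library left out their log2 FC was 0.28 to 0.56 for ZNF605, 0.17 to 0.53 for ZNF140 and 0.15 to 0.34 for ZNF268. ZNF26 (200 and 246 against 225 and 274 counts) and ZNF84 (705 and 778 against 706 and 879 counts) had log2 FC of 0.09 and 0.03, and their groups overlapped. The 95% intervals ended at 1.82-fold for ZNF605, 1.71 for ZNF140, 1.48 for ZNF268, 1.54 for ZNF26 and 1.31 for ZNF84, so that for these 5 a doubling lay outside the interval. For ZNF10 the interval reached 2.33-fold.

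**Figure D2:**
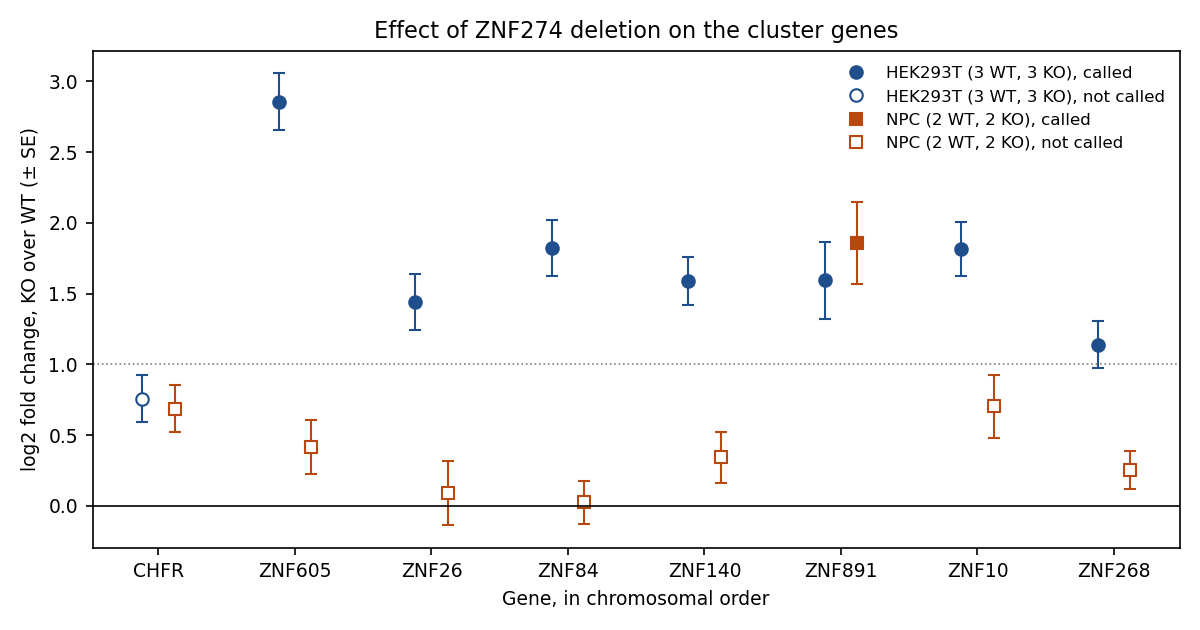
The log2 fold change of KO over WT for each cluster gene and ZNF891, with standard errors, in HEK293T (circles, 3 against 3 libraries) and NPC (squares, 2 against 2 libraries). Filled symbols passed both thresholds, an adjusted p under 0.05 and more than 2-fold (dotted line). The 6 zinc finger members are filled in HEK293T alone, from 1.14 to 2.86, and ZNF891 is filled in both cell types.

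The difference between the cell types was tested in a fit over all 10 libraries, as the KO effect in NPC minus that in HEK293T. The effect was lower in NPC for 5 of 7 members at more than 2-fold, against 6.22% of all genes (1197 of 19255). The log2 difference was -2.42 for ZNF605 (adjusted p = 0.000193), -1.78 for ZNF84 (adjusted p = 0.00158), -1.33 for ZNF26 (0.0147), -1.23 for ZNF140 (0.00757) and -1.10 for ZNF10 (0.0220). ZNF268 differed by -0.87 (adjusted p = 0.0290), which is under 2-fold, and its adjusted p was 0.0599 to 0.138 without WT HEK293T S15 or S17, WT NPC S5, or KO NPC S1 or S2. CHFR did not pass the test, with a log2 difference of -0.05, a 95% interval of 0.665 to 1.40 for the ratio of the fold changes, and an adjusted p of 0.954. The calls of ZNF26 and ZNF10 were lost without WT NPC S5 or without KO NPC S1, that of ZNF10 also without KO NPC S2 or WT HEK293T S17, and those of ZNF605, ZNF84 and ZNF140 held with each of the 10 libraries left out.

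In WT cells ZNF605 and ZNF84 were called higher in NPC than in HEK293T. These are 2 of the 7 members, a share near that of all genes, of which 25.2% were called higher (4845 of 19255). ZNF605 was 3.33 CPM in WT HEK293T and 13.3 ± 1.85 CPM in WT NPC (log2 difference 1.99, adjusted p = 4.08e-06), and ZNF84 was 15.6 ± 1.40 and 36.7 ± 4.49 CPM (log2 difference 1.23, adjusted p = 0.000193). ZNF268 was higher by 0.67 on the log2 scale (adjusted p = 0.00433), below the FC threshold. ZNF140, ZNF10 and CHFR had log2 differences of 0.36, 0.24 and 0.20 and ZNF26 one of -0.14, none passing the test. Cell type cannot be told apart from any difference in library preparation between the 2 sets.

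Set side by side without a test, the levels in KO HEK293T were above those in WT NPC for all 7 members. The ratio of the means was 1.81 for ZNF605, 2.98 for ZNF26, 1.50 for ZNF84, 2.35 for ZNF140, 2.98 for ZNF10, 1.38 for ZNF268 and 1.47 for CHFR. In WT NPC the order per kb was ZNF140 (4.41 ± 0.790), ZNF84 (3.85 ± 0.472) and ZNF268 (3.61 ± 0.320), each overlapping the next, then CHFR (1.49 ± 0.256), ZNF605 (1.23 ± 0.171) and ZNF10 (1.14 ± 0.029), again overlapping, and ZNF26 (0.530 ± 0.105). In KO NPC ZNF140 (5.66 ± 0.237 CPM per kb) stood apart from ZNF268 (4.35 ± 0.402), which overlapped ZNF84 (3.96 ± 0.386).

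ZNF891, the zinc finger gene that starts 301 bases from ZNF10 on the other strand, was called higher in both cell types. Its counts were 67, 97 and 73 in WT HEK293T and 155, 243 and 270 in KO HEK293T, and 47 and 50 in WT NPC and 153 and 217 in KO NPC. The groups did not overlap in either cell type. The log2 FC was 1.59 in HEK293T (SE 0.271, adjusted p = 0.0258) and 1.86 in NPC (SE 0.290, adjusted p = 0.00373), and the difference of 0.28 had an adjusted p of 0.723. The HEK293T call of ZNF891 was lost without S15, S16, S17, S19 or S20, with adjusted p of 0.0595 to 0.198. Its span overlaps ZNF140 on the other strand, and whether the counting used strand is not given in the sources used here.

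In HEK293T the calls at the end of chromosome 12 were limited to zinc finger genes. Within 1 Mb on the centromeric side and up to the telomere, 16 protein-coding genes that are no members are annotated, and 14 were tested in each cell type. In HEK293T 1 was called, ZNF891 (0.478% of all genes were called higher), and the median log2 FC of the other 13 was 0.12. P2RX2, named here after its values were seen, had 2, 4 and 1 counts in WT HEK293T and 65, 7 and 5 in KO HEK293T, the 65 in S18, and was not called (log2 FC 3.67, SE 1.12, adjusted p = 0.431). In NPCs its counts were 0 and 0 in WT against 1 and 3 in KO, and it was not called (adjusted p = 0.237). In NPCs 3 of 14 were called higher, ZNF891, GOLGA3 and GALNT9, against 8.45% of all genes. GOLGA3, which encodes a golgin and starts within the CHFR span on the same strand, had 307 and 397 counts in WT NPC and 701 and 801 in KO NPC, without overlap (log2 FC 1.02, SE 0.193, adjusted p = 0.0081), against a log2 FC of 0.35 in HEK293T (adjusted p = 0.737). GALNT9, a glycosyltransferase gene, had 0 counts in both WT NPC libraries and 9 and 8 in KO, at least 5.49-fold higher with 3 counts over the group as the limit (adjusted p = 0.0432). Of 17 noncoding genes annotated inside the span of the members, 3 were tested in HEK293T and 2 in NPC, and 0 were called.

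**Figure D3:**
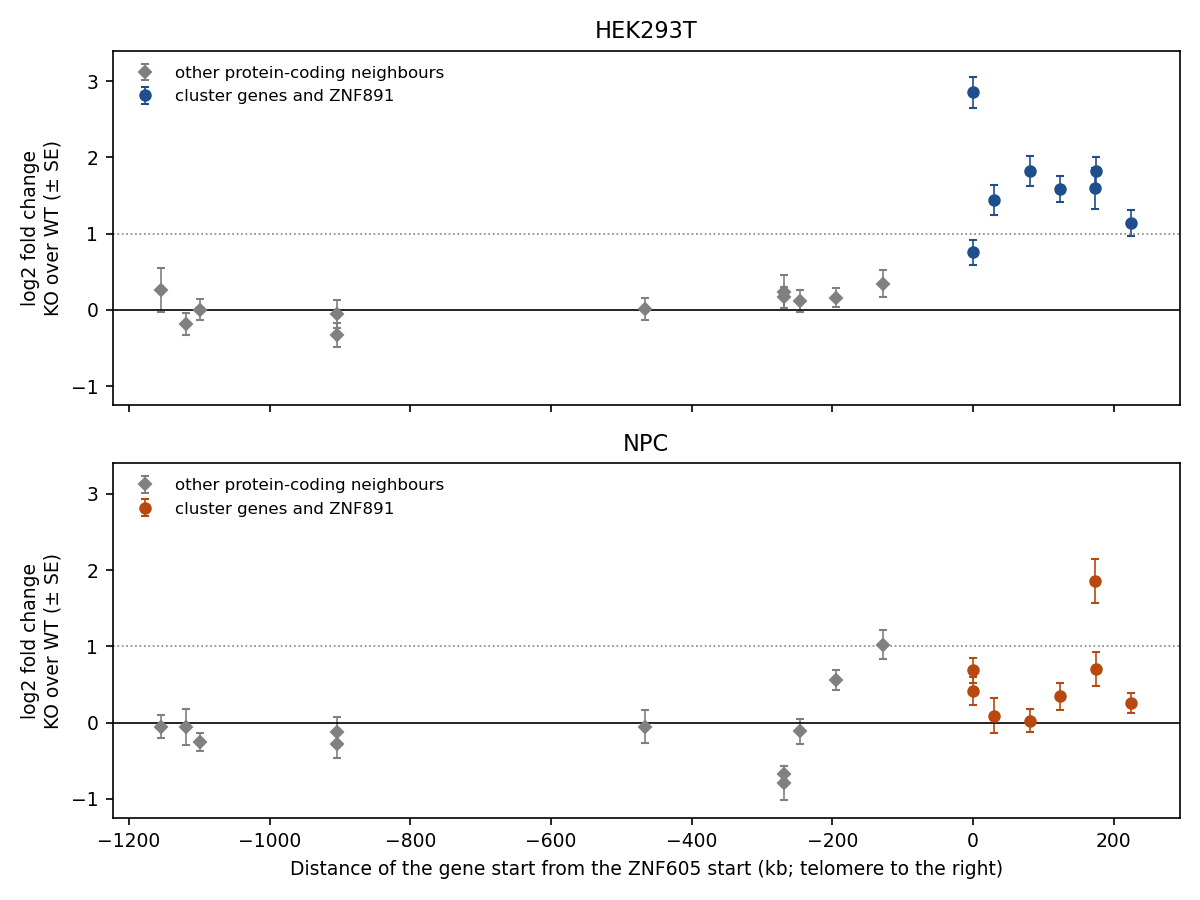
The log2 fold change of KO over WT (with standard errors) against the distance of each gene's start from the ZNF605 start, in kb, for protein-coding genes tested at the end of chromosome 12. Coloured points are the cluster genes with ZNF891 and grey diamonds the other neighbours, without GALNT9 and P2RX2, which had few or 0 counts in a group and of which P2RX2, at 3.67 in HEK293T, would lie above the dotted line (2-fold), as would both in NPC, where their fitted values rest on 0 counts in WT. Of the points drawn, those above this line in HEK293T are zinc finger genes, while in NPC they are ZNF891 and GOLGA3.

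Zinc finger genes that are no members gave a background, and ZNF891 is counted among them in both cell types. In HEK293T 59 of these 499 protein-coding genes were called higher and 0 lower, 11.8% with a median log2 FC of 0.25. Of the zinc finger members 6 of 6 were called, with a median of 1.70. In NPCs 36 of 507 (7.1%) were called higher and 23 lower, with a median of -0.09, against 8.45% and 8.36% of all genes.

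**Figure D4:**
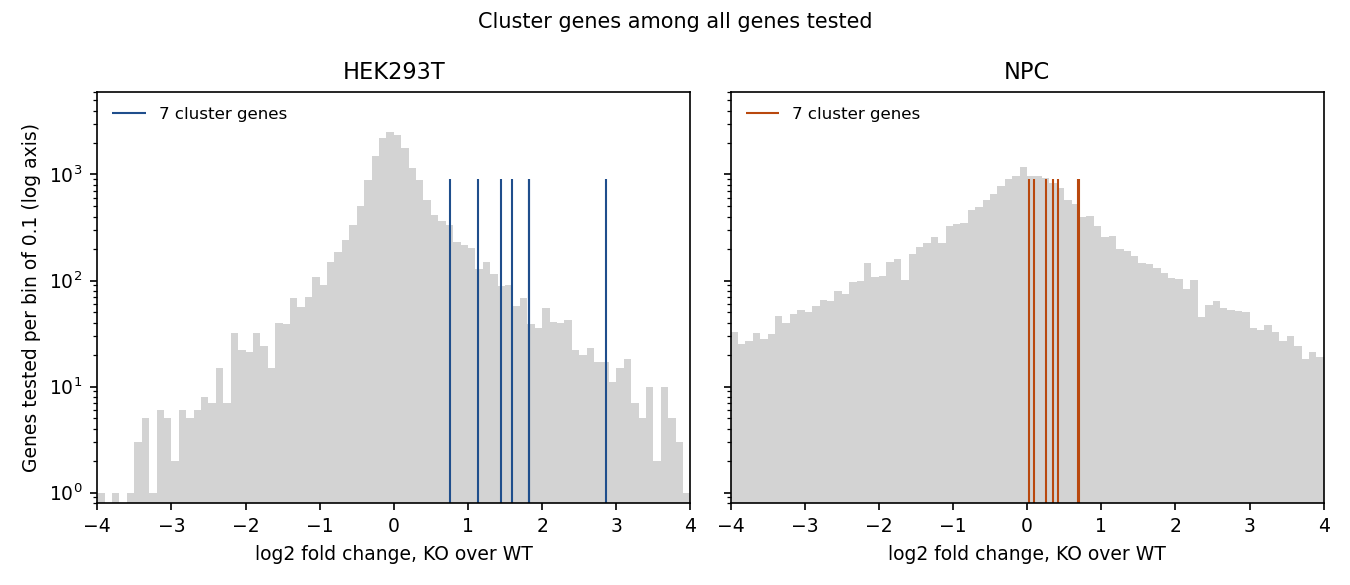
Distribution of the log2 fold change of KO over WT across genes tested (19018 in HEK293T and 20577 in NPC). Bars give genes per bin of 0.1 on a log axis, with the 7 cluster genes as vertical lines. Bins centred from -3.95 to 3.95 are drawn, and genes with larger changes in either direction are left out. In HEK293T the 7 lines lie from 0.76 to 2.86, right of the centre, where CHFR at 0.76 ranked 2085 of 19018 by log2 fold change. In NPC they lie from 0.03 to 0.70 within the bulk.

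The members were also alike across libraries. The Pearson correlation of each zinc finger member with the mean of the other 5 over the 10 libraries (log2 CPM, standardized) was 0.971 for ZNF140, 0.947 for ZNF10, 0.920 for ZNF84, 0.910 for ZNF268, 0.899 for ZNF605 and 0.764 for ZNF26. These points share 4 groups and their libraries, so the values describe the group pattern. Besides the 6 zinc finger members 13708 genes were compared, CHFR and ZNF891 among them, although CHFR as a member could not be picked. The 5 most like the mean of the 6 members were all named for zinc finger genes of chromosome 19. They were ZNF480 (r = 0.937), ZNF582-DT, a divergent transcript of ZNF582 (0.932), ZNF180 (0.923), ZNF256 (0.918) and ZNF493 (0.916). ZNF256, for example, had 5.65 to 6.65 CPM in WT HEK293T and 15.5 to 38.6 CPM in KO HEK293T, against 12.3 and 12.5 CPM in WT NPC and 10.5 and 11.1 CPM in KO NPC.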

How the data were processed

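RNA was sequenced as stranded mRNA libraries. The authors aligned reads with hisat2 (hg19) and counted those that mapped uniquely with featureCounts, on an annotation of genes and transposable elements. They deposited 1 table of raw gene counts per cell type. The alignment of stranded reads took their strand into account. Versions, the annotation and the strand setting of the counting are not given in the sources used here. Depth was 18621266 to 32285876 counts per library.

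The quasi-likelihood test of edgeR 4.0.16 (R 4.3.3, TMM normalization, robust estimation off) was run on the counts, and p-values were adjusted by Benjamini-Hochberg over all genes tested, for genes with a total count of at least the number of libraries in the fit. Calls needed an adjusted p under 0.05 together with more than 2-fold. CPM were scaled over all 10 libraries. Of 24050 identifiers 23273 were found in GENCODE 44 lifted to hg19. Groups came from the genotype and cell line labels. On simulated counts with 200 changed genes per comparison the scripts were checked for how many of the changed genes they called. The size of the fold changes was not checked. Alternatives were DESeq2 1.42.0, voom (limma 3.58.1, the test of the study), other size factors, filters and thresholds, 1 fit of all libraries, and each library left out in turn. A floor of 3 counts covers counting error alone, and so do limits derived from it.

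The members, gene lists and tests were chosen with earlier results of these data known, and the letters TGTAGTT after the promoters were read. Genes named by rule were the members, ZNF274, ZNF891 and neighbours called in either cell type. So were the 5 genes most correlated with the zinc finger members among those with a mean of at least 1 CPM (log2 of CPM plus 0.5). ZNF256 was singled out from these 5 after its values were seen. P2RX2, a neighbour not called in either cell type, was also named after its values were seen, and the marker HES5 for its 0 counts in KO NPC. The order by level used CPM per kb of joined exons.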

Additional observations from a re-analysis of the deposited data

Results flagged for a closer look

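The KO effect differed between the cell types for 6 of the 7 measured members at an adjusted p below 0.05 (edgeR, all 10 libraries), a threshold that 2903 of the 19255 genes tested passed in either direction. The log2 effect in NPC minus that in HEK293T was -2.42 for ZNF605, -1.78 for ZNF84, -1.33 for ZNF26, -1.23 for ZNF140, -1.10 for ZNF10 and -0.87 for ZNF268. The adjusted p of ZNF268 was no longer below 0.05 without any 1 of 5 of the 10 libraries (0.0599 to 0.138), and that of ZNF26 and ZNF10 without 2 and 4 of them. Among the neighbours named, GALNT9 differed as well, by a fitted 6.57 that rests on 0 counts in WT NPC, 9 and 8 in KO NPC and 2 to 10 in the HEK293T libraries, and such a fitted value is no bound. Groups of 2 and 3 libraries are too small for a search for single outlying libraries.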

How the results depend on the processing

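No paired analysis was possible because the groups share no replicate numbers. The number of members called in HEK293T was 6 under every other normalization, test, filter, fit and threshold tried, and 4 to 6 with each library left out. In NPC it was 0, or 1 (CHFR) with no FC threshold, and 0 to 0 with each library left out. For the difference between cell types it was 5, or 3 at an adjusted p below 0.01, 6 (with ZNF268) with library size alone or with no FC threshold, and 3 to 5 with each library left out. For WT NPC against WT HEK293T it was 2, or 3 (with ZNF268) with no FC threshold, and 2 to 2 with each library left out. In NPC the direction of ZNF26 and ZNF84 was not stable: with library size alone their log2 FC was -0.022 and -0.085, and with each library left out it was -0.10 to 0.30 and -0.10 to 0.15. With each library left out the difference between cell types for CHFR was -0.22 to 0.12, and WT NPC against WT HEK293T was -0.36 to 0.046 for ZNF26 and -0.28 to 0.032 for ZNF891. The cause was not tested. Over all results and alternatives, 479 values kept their direction and side of the threshold, 18 were no longer past it, 4 came past it and 11 changed sign. Over all genes, 93 were called in HEK293T, against 164 with DESeq2, 61 at an adjusted p below 0.01 and 44 to 116 with 1 library left out. In NPC 3459 were called, against 5888 with no FC threshold, 2225 at an adjusted p below 0.01 and 2084 to 4038 with 1 library left out, and for the difference between cell types 2354, against 2782 with DESeq2, 2903 with no FC threshold, 1224 at an adjusted p below 0.01 and 1455 to 2494 with 1 library left out. Leaving out 1 NPC library leaves a single library in that group, which is then assumed to vary like the others.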
